A study of Mus musculus with 24 samples.

Results

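The 10 genes described here encode parts of the machinery that carries and ends signals from G protein-coupled receptors in macrophages. They are 6 regulators of G protein signalling (Rgs1, Rgs2, Rgs18, Rgs10, Rgs14 and Rgs19), 3 G protein alpha subunits (Gna12, Gna13 and Gnai2) and beta-arrestin 2 (Arrb2). They were chosen by name as the set of G protein subunits and regulators, with earlier results of these data known, and make up 10 of the 54532 genes in the table. All 10 were among the 11377 genes that passed the filter on low values (FPKM 1 or more in 4 or more libraries). FPKM, a count of fragments relative to exon length and to the mapped total of a library, is scaled to gene length. Levels of different genes can be set side by side only roughly, because that length is of all annotated exons, not of the transcripts expressed.

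Messenger RNA was measured in 24 libraries of macrophages grown from C57BL/6 bone marrow over 7 days in L929-conditioned medium. Each of the 6 groups held 4 libraries. Cells labelled Trem2(-/-), for Trem2, a lipid-sensing receptor of macrophages, are called KO here, and wild-type cells are called WT. In each genotype the cells received S1P (sphingosine-1-phosphate, a lipid ligand of G protein-coupled receptors) at 500 nM for 24 hours, or ACM for 24 hours, or were left untreated. ACM is serum-free medium from AML12 cells, a mouse hepatocyte line driven into apoptosis with palmitate at 800 µM. The labels do not name a vehicle or medium for untreated cells, so a difference from them does not separate an agent from its medium. The labels name no animals or separate cultures, so a p-value covers the spread from library to library alone, and this can be technical.

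A receptor bound to its ligand makes a G protein alpha subunit exchange GDP for GTP and part from the beta and gamma subunits, and the parted subunits then act on effectors. RGS proteins speed the hydrolysis of GTP by alpha subunits and so shorten the signal, while receptor kinases and arrestins uncouple the receptor itself. In leukocytes Gi proteins drive chemotaxis and lower cyclic AMP, and G12 and G13 activate exchange factors of the GTPase RhoA; the receptors for S1P couple to several of these families.

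Libraries held 16.6 to 25.2 M reads, and 901 to 27679 reads fell on a member in a library. Trem2 itself had a mean FPKM of 39.6 ± 0.983 in KO S1P and 39.2 ± 1.67 in KO ACM libraries, against 103 ± 4.70 in WT S1P and 90.1 ± 2.73 in WT ACM libraries (SD, n = 4 each). Among KO untreated libraries 3 had 35.7 to 40.2, but the library labelled KO untreated 81 had 79.6, inside the 74.5 to 82.7 of WT untreated libraries. Trem2 RNA was present in every library labelled KO, and the labels do not say which part of the gene was deleted. For the members, library 81 lay nearer to the WT than to the other KO untreated libraries in 6 of 10, and outside the range of both groups in 6 of 10. It is therefore given apart below, and KO untreated FPKM values are of the other 3 libraries (n = 3). The limma differences, SE and p-values are from the fit with all 24 libraries, 81 included, unless its absence is stated. In WT S1P, libraries 27 and 28 were the farthest from WT untreated in 9 of the 10 members, so some results of members are also given without these, an alternative chosen after seeing the data. Results of the lists of related genes are not given without them. All 8 macrophage markers were expressed in every library, and all hepatocyte, fibroblast and lymphocyte markers stayed under an FPKM of 1.

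**Figure D1:**
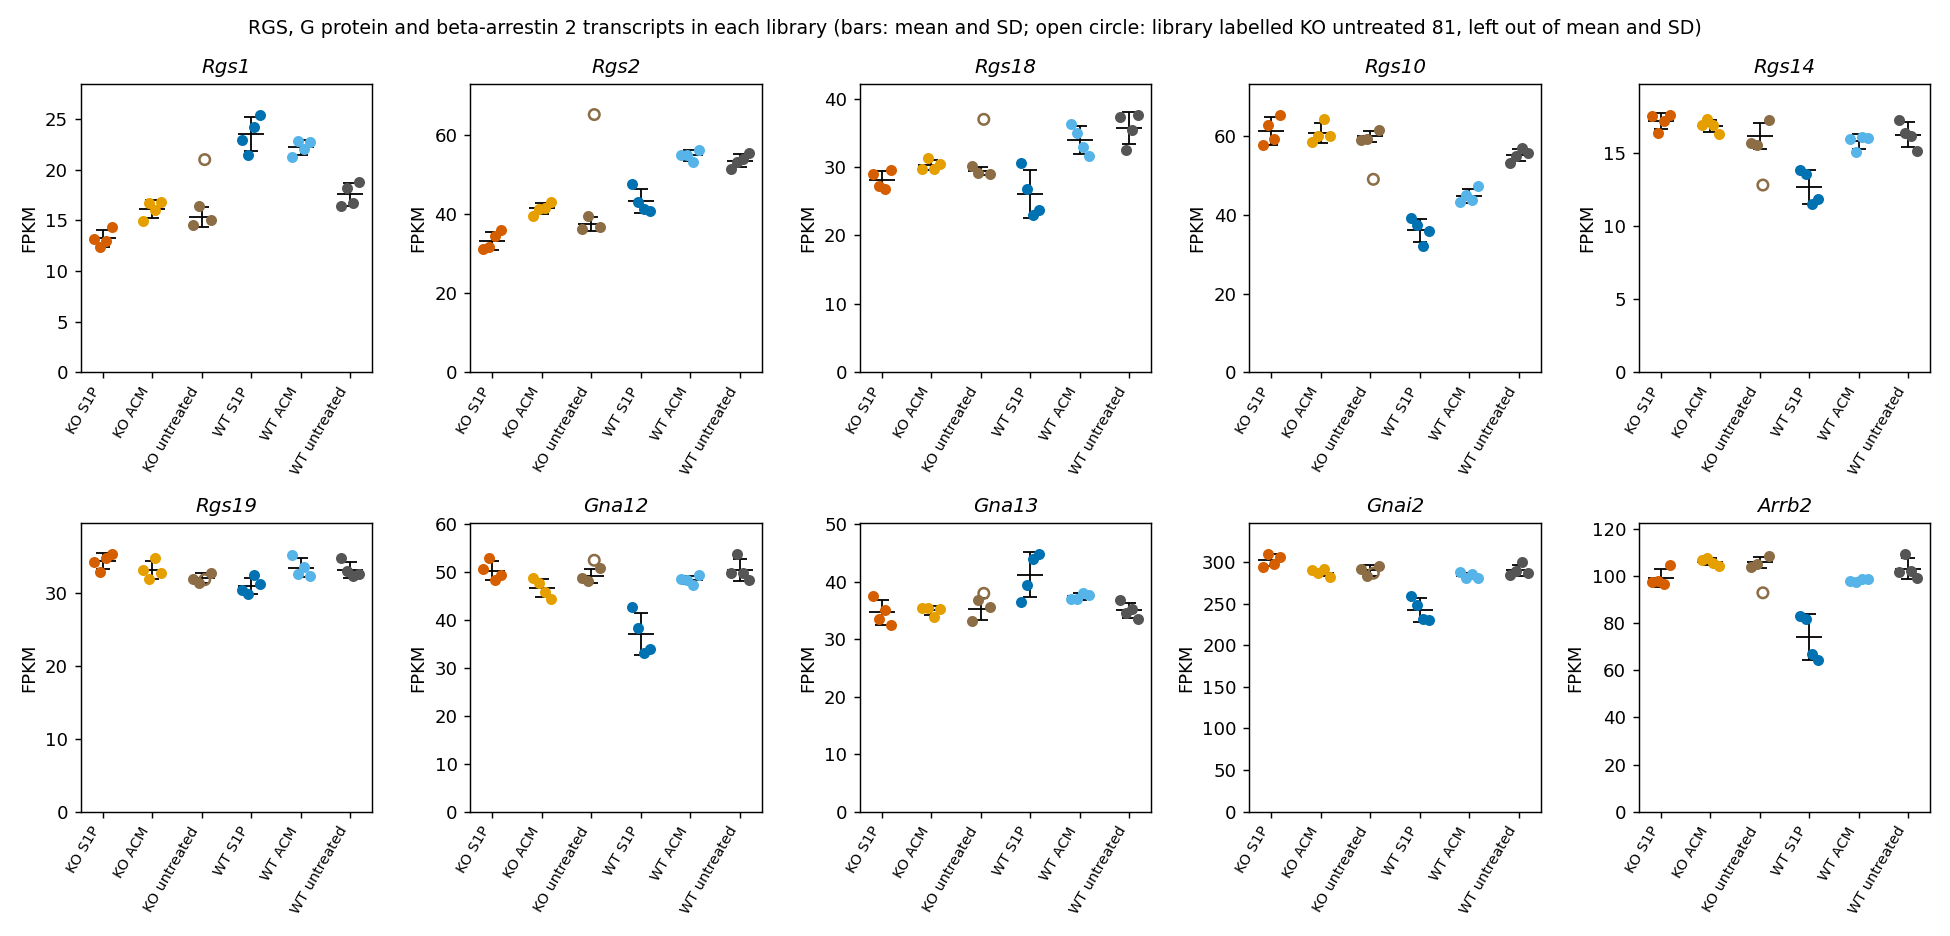
FPKM of the 10 genes in each library, by group, on a scale of its own for each gene, with 1 point per library and a bar at the group mean; the library labelled KO untreated 81 is drawn apart. WT S1P libraries sit below all others for Rgs10, with 32.1 to 39.1, and for Rgs1 have the highest mean, with 21.5 to 25.4, but overlap WT ACM.

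All 10 genes changed in WT cells given S1P. Rgs1 and Gna13 rose, and Rgs2, Rgs10, Rgs14, Rgs18, Rgs19, Gna12, Gnai2 and Arrb2 fell in WT S1P against WT untreated libraries, at a limma adjusted p under 0.05 over all genes tested. This comparison called 52.4% of all genes, 25.2% higher and 27.2% lower, and the members' count is read against that share. Of the genes tested, 71.6 to 98.8% had a mean FPKM at or below that of a member. The log2(FPKM + 1) scale understates changes of low genes, and no share among genes of like level is given here or below. The members were also chosen with earlier results of these data known. The median log2 difference was −0.32 over the members and 0.00 over all genes tested. In 8 of 10 members the WT S1P and WT untreated ranges did not overlap, against 45.2% of all genes. Where 4 libraries against 4 did not overlap, the two-sided exact permutation p was 0.0286, the smallest that 70 arrangements allow. Without WT S1P libraries 27 and 28, 4324 genes over all tested were called in place of 5964. Of the members 8 were then called, all but Rgs2 and Gna13. Among them Rgs1 was at 0.33, Rgs10 at −0.52, Rgs14 at −0.23, Rgs19 at −0.13 and Gnai2 at −0.19. The summed FPKM of the macrophage marker list moved as well, lying between 4646 and 6438 across WT S1P libraries against 7897 and 8094 across WT untreated libraries, and its part in these differences was not tested. The largest term of that sum was Lyz2, at 2495 to 5917 FPKM over all libraries, so the sum need not describe the other markers. In bulk RNA, fewer cells of a type and less RNA per cell cannot be told apart.

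The R4 subfamily of RGS proteins split, although its 3 genes here lie near each other on chromosome 1, between 143999338 and 144775435. Rgs1 (ENSMUSG00000026358, chr1:144242296-144249242, minus strand), which restrains chemokine receptor signals through Gi and Gq in leukocytes, had 22.97, 21.5, 24.2 and 25.4 FPKM in WT S1P libraries, 21.2, 22.8, 22.03 and 22.8 in WT ACM libraries and 16.4, 18.2, 16.7 and 18.8 in WT untreated libraries. Neither treated group overlapped the untreated one, while the treated groups overlapped each other. The log2 difference on the log2(FPKM + 1) scale was 0.40 ± 0.08 (SE) for S1P and 0.33 ± 0.08 for ACM (limma adjusted p 0.00019 and 0.0053). S1P and ACM differed by 0.08 ± 0.08, which was not called (limma adjusted p 0.47). Scaled to TPM, the ACM difference was 0.22 and lost its call (adjusted p 0.077).

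In KO cells Rgs1 was not called higher with either treatment. Its FPKM was 13.2, 12.3, 12.97 and 14.4 in KO S1P, 14.9, 16.7, 16.0 and 16.8 in KO ACM and 14.5, 16.4 and 15.1 in KO untreated libraries, with 20.99 in the library labelled KO untreated 81. Every KO S1P and KO ACM library lay below every WT library of the same treatment. KO S1P was lower than WT S1P by a log2 difference of −0.79 ± 0.08 and KO ACM lower than WT ACM by −0.44 ± 0.08 (limma adjusted p 3.8e-08 and 0.00023). The S1P difference in KO cells minus that in WT cells was −0.71 (limma adjusted p 2.7e-05), or −0.60 without library 81. For ACM the same term was −0.37 (limma adjusted p 0.028), or −0.26 without library 81. The ACM call was lost without WT untreated library 1 or 3 or KO ACM library 85 (adjusted p 0.054 to 0.059).

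Rgs2 (ENSMUSG00000026360, chr1:143999338-144004161, minus strand), an RGS protein with preference for Gq alpha, had its lowest values in KO S1P cells. Its FPKM was 31.2, 31.8, 34.4 and 35.9 in KO S1P, 39.6, 41.4, 41.6 and 43.2 in KO ACM and 36.2, 39.5 and 36.7 in KO untreated libraries. In WT cells it was 47.6, 43.2, 41.4 and 40.9 with S1P, 55.1, 55.1, 53.1 and 56.4 with ACM and 51.4, 53.3, 54.0 and 55.4 untreated. Within each treatment all KO libraries lay below all WT libraries, apart from library 81, whose 65.3 was above every other library in the study. The log2 difference of KO from WT was −0.37 ± 0.11 under S1P and −0.40 ± 0.11 under ACM (limma adjusted p 0.0099 and 0.012). In the fit without library 81 these were −0.37 ± 0.05 and −0.40 ± 0.05 (limma adjusted p 1.2e-06 each). Untreated, it was −0.50 ± 0.05 without library 81 (limma adjusted p 1.0e-06) and −0.31 ± 0.11 with it (adjusted p 0.17). Rgs2 fell with S1P in WT cells by a log2 difference of −0.30 ± 0.11 (limma adjusted p 0.031), a call lost without WT S1P library 26, 27 or 28 or WT untreated library 2, 3 or 4 (adjusted p 0.052 to 0.076). The fit without KO untreated library 81, which enters the shared spread, gave −0.30 ± 0.05 (adjusted p 1.4e-05). Without both 27 and 28 it was −0.23 (adjusted p 0.22). Rgs2 was the sole member whose response to S1P did not differ between genotypes by the interaction test, at −0.06 ± 0.16 with library 81 and 0.14 ± 0.07 without it (limma adjusted p 0.79 and 0.13).

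Rgs18 (ENSMUSG00000026357, chr1:144752683-144775435, minus strand), an R4 member that is abundant in platelets and megakaryocytes, had 30.6, 26.8, 22.9 and 23.7 FPKM in WT S1P libraries, against 37.4, 32.5, 35.4 and 37.7 in WT untreated libraries. The ranges did not overlap, but WT S1P itself spread from the level of KO cells in library 25 down to the lowest values of the study in libraries 27 and 28. The log2 difference was −0.45 ± 0.08, or −0.31 without libraries 27 and 28 (limma adjusted p 4.7e-05 and 0.0056). KO cells ranged from 26.8 to 29.6 with S1P, 29.8 to 31.3 with ACM and 29.0 to 30.1 untreated, and library 81 had 37.0. KO untreated was lower than WT untreated by −0.27 ± 0.07 without library 81 (limma adjusted p 0.022). With library 81 the difference was −0.19 ± 0.08 and not called (limma adjusted p 0.22). The S1P interaction was 0.30 (limma adjusted p 0.031), or 0.38 without library 81 (adjusted p 0.0033). With library 81 kept in, it kept its sign but not its call without WT S1P libraries 27 and 28 (0.16, adjusted p 0.28). It then also lost the call without any 1 of 9 single libraries, WT S1P 27 or 28, WT untreated 1 or 4, KO S1P 91 or 94 and KO untreated 79, 80 or 82 (0.25 to 0.29, adjusted p 0.054 to 0.078). Of the megakaryocyte and platelet markers, Itga2b, Gp9 and Gp1ba stayed under an FPKM of 1 in every library. The summed list, nearly all Ppbp, ran from 36.0 to 41.2 across KO S1P and KO ACM libraries against 11.3 to 23.6 across all WT libraries, and was 8.04 in library 81; its part in Rgs18 was not tested.

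Of the R12 subfamily, Rgs10 (ENSMUSG00000030844, chr7:128373621-128418758, minus strand), a small Gi regulator known for limiting inflammatory activation of microglia and macrophages, had the largest fall among the members with S1P in WT cells. Its FPKM was 39.1, 37.3, 32.1 and 35.8 in WT S1P, 43.2, 45.1, 43.7 and 47.2 in WT ACM and 53.2, 54.99, 57.0 and 55.6 in WT untreated libraries. The 3 WT groups did not overlap, with S1P lowest and ACM between S1P and untreated. Mean FPKM fell by 34.6% with S1P and by 18.8% with ACM. The log2 differences were −0.60 ± 0.06 and −0.29 ± 0.06 (limma adjusted p 4.2e-08 and 0.0016), and S1P lay below ACM by −0.31 ± 0.06 (limma adjusted p 0.00038).

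In KO cells the Rgs10 ranges of the 3 groups overlapped, and all libraries but 81 lay above the WT untreated range. It had 57.8, 62.7, 59.1 and 65.4 FPKM in KO S1P, 58.6, 60.1, 64.3 and 60.1 in KO ACM and 59.0, 59.2 and 61.6 in KO untreated libraries, with 49.0 in library 81. The KO S1P and KO ACM ranges lay wholly above the WT ranges of the same treatment. KO exceeded WT by a log2 difference of 0.75 ± 0.06 under S1P and 0.43 ± 0.06 under ACM (limma adjusted p 2.2e-09 and 2.2e-05). Untreated, the difference was 0.12 ± 0.05 without library 81 and 0.05 ± 0.06 with it, not called either way (limma adjusted p 0.20 and 0.75). The interaction was 0.70 for S1P and 0.38 for ACM (limma adjusted p 1.7e-06 and 0.0041), or 0.63 and 0.31 without library 81.

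Rgs14 (ENSMUSG00000052087, chr13:55369732-55384687, plus strand), which joins an RGS domain to a motif that holds Gi alpha in its GDP form, had 17.5, 16.4, 17.2 and 17.6 FPKM in KO S1P libraries, against 13.8, 13.6, 11.5 and 11.8 in WT S1P libraries. Every WT S1P library was also below the WT untreated range of 15.2 to 17.3 and the WT ACM range of 15.0 to 16.1. It fell with S1P in WT cells, by −0.34 ± 0.06, and KO S1P exceeded WT S1P by 0.41 ± 0.06 (limma adjusted p 0.00015 and 1.4e-05). KO ACM and KO untreated libraries, at 16.3 to 17.3 and 15.6 to 17.2, overlapped the KO S1P range, and library 81 had 12.8.

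Rgs19 (ENSMUSG00000002458, chr2:181688419-181693977, minus strand), an RZ-type regulator of Gi and Gz alpha, had the narrowest range of the members relative to its level. Group ranges were 32.9 to 35.4 in KO S1P, 32.0 to 34.8 in KO ACM, 31.5 to 32.8 in KO untreated, 29.9 to 32.5 in WT S1P, 32.4 to 35.3 in WT ACM and 32.4 to 34.8 in WT untreated libraries. WT S1P overlapped WT untreated, and the called difference of −0.10 ± 0.03 (limma adjusted p 0.024) had an exact permutation p of 0.057 (two-sided). That call was lost under median scaling (−0.06, adjusted p 0.16) and without WT S1P library 25 or 26 or WT untreated library 1. KO S1P and WT S1P did not overlap, with a log2 difference of 0.14 ± 0.03 (limma adjusted p 0.0013), which was 0.09 and not called under TPM scaling (adjusted p 0.23).

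**Figure D2:**
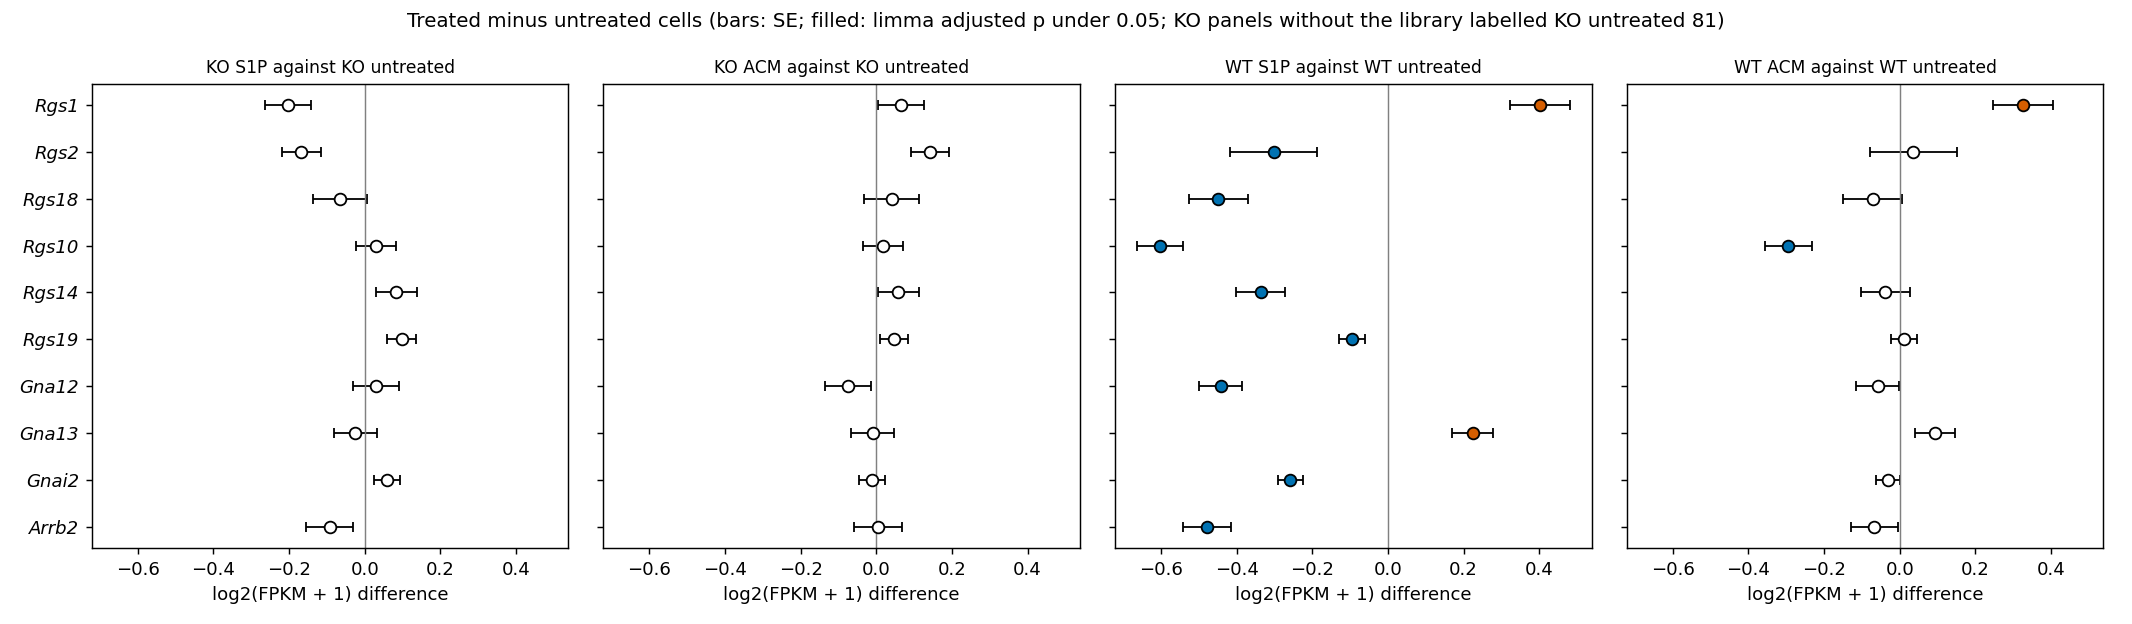
Log2 differences on the log2(FPKM + 1) scale of each gene between treated and untreated libraries, by genotype, with bars of 1 SE from limma. The KO panels are from the fit without library 81 and the WT panels from the fit with all 24 libraries. The SE of these fits differ. In WT S1P Rgs10 is at −0.60 and Rgs1 at 0.40, while the KO points lie between −0.20 and 0.14.

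The sister subunits of the G12 family moved apart. Gna12 (ENSMUSG00000000149, chr5:140758408-140830431, minus strand) had 42.5, 38.3, 33.0 and 33.9 FPKM in WT S1P libraries, against 49.8, 53.7, 49.8 and 48.2 in WT untreated libraries. Gna13 (ENSMUSG00000020611, chr11:109362831-109401369, plus strand) had 36.5, 39.5, 44.0 and 44.9 in WT S1P libraries, against 36.8, 34.6, 35.2 and 33.6 in WT untreated libraries. For Gna12 the ranges did not overlap, and for Gna13 only WT S1P library 25 lay within the untreated range. Gna12 fell by 26.6% in mean FPKM (log2 difference −0.44 ± 0.06, limma adjusted p 9.7e-07) and Gna13 rose by 17.6% (0.22 ± 0.05, limma adjusted p 0.0013). Without WT S1P libraries 27 and 28 the differences were −0.31 and 0.11 (adjusted p 4.7e-05 and 0.099), so the call on Gna13 was lost. ACM moved neither past the threshold in WT cells, with differences of −0.06 ± 0.06 and 0.09 ± 0.05 (limma adjusted p 0.51 and 0.23).

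In KO cells Gna12 had 50.5, 52.8, 48.3 and 49.2 FPKM with S1P, 48.6, 47.7, 45.8 and 44.4 with ACM and 48.6, 47.9 and 50.8 untreated. Gna13 had 37.5, 33.6, 35.1 and 32.6 with S1P, 35.5, 35.4, 33.9 and 35.2 with ACM and 33.3, 36.9 and 35.7 untreated. Library 81 had 52.3 for Gna12 and 37.997 for Gna13. KO S1P differed from WT S1P by 0.44 ± 0.06 for Gna12, with no overlap, and by −0.24 ± 0.05 for Gna13, with overlap (limma adjusted p 1.1e-06 and 0.00069). For Gna13 this became −0.13 without WT S1P libraries 27 and 28 (adjusted p 0.058). The S1P interaction was 0.45 for Gna12 and −0.27 for Gna13 (limma adjusted p 0.00011 and 0.0057), or 0.47 and −0.25 without library 81 (adjusted p 0.00010 and 0.013). Without WT S1P libraries 27 and 28 it was 0.32 and −0.16 (adjusted p 0.00073 and 0.073). Reads of Amz1, which overlaps Gna12 over 3032 bases on the other strand at an FPKM of 1.55 to 5.19, and of the antisense gene Gm11696 within Gna13 at 0.200 to 0.696, cannot be told apart from them where strand was not used.

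A ratio within a library does not depend on its scaling. Gna12 over Gna13 in FPKM averaged 1.45 ± 0.107 in KO S1P, 1.33 ± 0.0489 in KO ACM and 1.39 ± 0.0846 in KO untreated libraries (SD, n = 4, 4 and 3). In WT cells it averaged 0.911 ± 0.198 with S1P, 1.29 ± 0.0345 with ACM and 1.44 ± 0.0836 untreated (SD, n = 4 each). On the FPKM scale Gna12 was thus below Gna13 in 3 WT S1P libraries, with a lowest ratio of 0.750, and above it in library 25 at 1.17. That order rests on the exon lengths used, while the difference in ratio between groups does not. Rgs1 over Rgs2 averaged 0.397 ± 0.0197 in KO S1P, 0.388 ± 0.0119 in KO ACM and 0.409 ± 0.00727 in KO untreated libraries, and 0.547 ± 0.0673 in WT S1P, 0.405 ± 0.0134 in WT ACM and 0.328 ± 0.0154 in WT untreated libraries. The pairs were chosen after their values were seen, so no test is given.

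**Figure D3:**
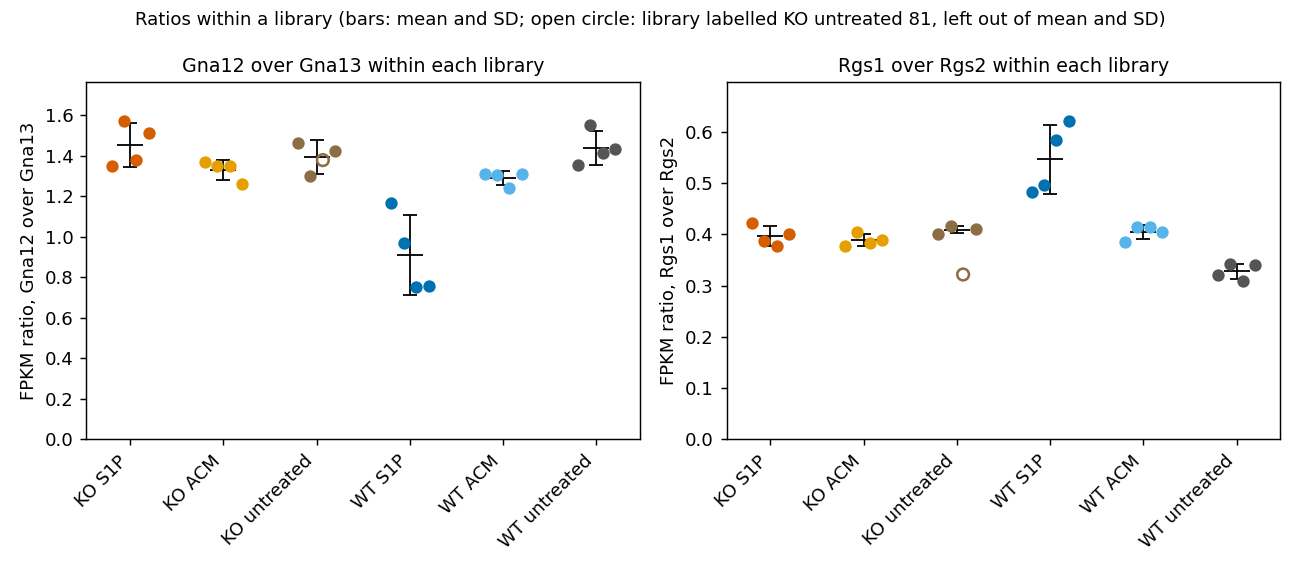
Ratio of FPKM within each library, Gna12 over Gna13 and Rgs1 over Rgs2, by group, with 1 point per library and a bar at the group mean. WT S1P has the lowest mean of Gna12 over Gna13, 0.911, and the highest of Rgs1 over Rgs2, 0.547.

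The start regions of 5 of the 10 genes are in the RefSeq promoter table of GRCm38.p6, which holds 250 bases before to 50 after a RefSeq start. Those of Gna12 and Gna13 are shown because these sisters moved in opposite directions, and those of Rgs10 and Rgs2 because Rgs10 had the largest S1P fall and Rgs2 was lower in KO cells in every treatment without library 81. Capitals mark, on either strand, the CCAAT box with its 5 letters of that name, the GC box spelled GGGCGG, the core of the cyclic AMP response element (CRE) spelled TGACG, and the E-box spelled CACGTG, and they run together where matches overlap.
Gna12: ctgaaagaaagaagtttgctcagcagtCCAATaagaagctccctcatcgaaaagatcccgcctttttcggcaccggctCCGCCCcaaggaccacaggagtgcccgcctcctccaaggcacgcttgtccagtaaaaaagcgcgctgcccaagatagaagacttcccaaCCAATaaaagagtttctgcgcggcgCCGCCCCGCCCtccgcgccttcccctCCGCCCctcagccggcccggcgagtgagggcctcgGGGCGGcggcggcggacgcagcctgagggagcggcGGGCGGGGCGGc
Gna13: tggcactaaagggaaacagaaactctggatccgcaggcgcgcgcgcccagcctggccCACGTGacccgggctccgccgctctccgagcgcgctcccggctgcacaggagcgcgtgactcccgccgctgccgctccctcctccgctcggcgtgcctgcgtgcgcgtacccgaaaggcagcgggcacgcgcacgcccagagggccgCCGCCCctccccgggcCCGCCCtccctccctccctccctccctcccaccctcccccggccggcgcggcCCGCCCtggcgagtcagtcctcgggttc
Rgs10: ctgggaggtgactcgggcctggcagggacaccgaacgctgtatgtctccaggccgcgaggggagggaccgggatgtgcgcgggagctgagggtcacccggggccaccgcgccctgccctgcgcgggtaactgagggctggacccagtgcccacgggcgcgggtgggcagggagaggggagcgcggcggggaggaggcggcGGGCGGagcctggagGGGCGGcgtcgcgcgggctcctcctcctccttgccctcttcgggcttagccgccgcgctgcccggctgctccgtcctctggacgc
Rgs2: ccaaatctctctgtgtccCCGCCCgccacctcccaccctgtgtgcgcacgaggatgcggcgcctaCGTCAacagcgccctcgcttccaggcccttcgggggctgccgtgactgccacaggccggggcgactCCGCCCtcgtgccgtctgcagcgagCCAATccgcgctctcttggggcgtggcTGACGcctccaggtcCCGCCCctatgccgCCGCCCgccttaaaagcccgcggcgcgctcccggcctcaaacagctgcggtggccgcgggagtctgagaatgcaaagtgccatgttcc
The Gna12 window (chr5:140830382-140830681, minus strand) held 2 CCAAT boxes and 7 GC boxes, and the Gna13 window (chr11:109362544-109362843, plus strand) held 3 GC boxes, 1 E-box and 0 CCAAT boxes. The Rgs10 window (chr7:128418123-128418422, minus strand) held 2 GC boxes, and the Rgs2 window (chr1:144004100-144004399, minus strand) held 1 CCAAT box, 4 GC boxes and 2 CRE cores. The Rgs10 window lies wholly inside the locus given above (chr7:128373621-128418758), so its start is not the upstream end of that locus. Of 32851 promoters of the same length, 37.4% hold a CCAAT box, 35.7% a GC box, 20.8% a CRE core and 7.15% an E-box. A TATA box spelled TATAAA, which 13.6% of promoters hold, was in 0 of these 4 windows. Their GC content of 65.7, 76.7, 76 and 70% for Gna12, Gna13, Rgs10 and Rgs2 was above the median of 52.7% over all promoters. A match describes letters in the window, not a bound site.

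Gnai2 (ENSMUSG00000032562, chr9:107614125-107635367, minus strand), the main Gi alpha subunit of leukocytes, was the most abundant member, at 229.8 to 309.5 FPKM over all libraries. It had 294, 309.5, 298 and 306 FPKM in KO S1P, 259, 249, 232 and 229.8 in WT S1P and 284, 289, 299 and 287 in WT untreated libraries. WT S1P lay wholly below every other group. It was lower than WT untreated by −0.26 ± 0.03 and lower than WT ACM by −0.23 ± 0.03 (limma adjusted p 7.1e-07 and 1.0e-05), and KO S1P exceeded it by 0.32 ± 0.03 (limma adjusted p 4.4e-08). Its relative Gnai3, at 57.6 ± 2.85 FPKM in WT S1P and 57.7 ± 1.04 in WT untreated libraries (SD, n = 4 each), differed by 0.00 ± 0.03 and was not called (limma adjusted p 0.94).

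Arrb2 (ENSMUSG00000060216, chr11:70432635-70440828, plus strand), which binds phosphorylated receptors and takes them from the G protein, had 97.4, 98.0, 96.8 and 105 FPKM in KO S1P, 83.0, 81.8, 67.0 and 64.5 in WT S1P and 102, 109, 102 and 99.0 in WT untreated libraries. WT S1P fell into a higher pair, libraries 25 and 26, and a lower pair, 27 and 28, all below every other library of the study. Arrb2 was lower in WT S1P than in WT untreated libraries by −0.48 ± 0.06, or −0.32 without libraries 27 and 28 (limma adjusted p 1.3e-06 and 2.2e-05). KO S1P exceeded WT S1P by 0.43 ± 0.06 (limma adjusted p 6.1e-06), and the S1P interaction was 0.43 (limma adjusted p 0.00044), or 0.39 without library 81 (adjusted p 0.0011). KO ACM had 104 to 108 and KO untreated 104 to 109, against 97.5 to 98.7 in WT ACM, and library 81 had 92.9. Arrb1, the other widely expressed arrestin of this type, fell too, by −0.13 ± 0.04 in WT S1P against WT untreated (limma adjusted p 0.0054).

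**Figure D4:**
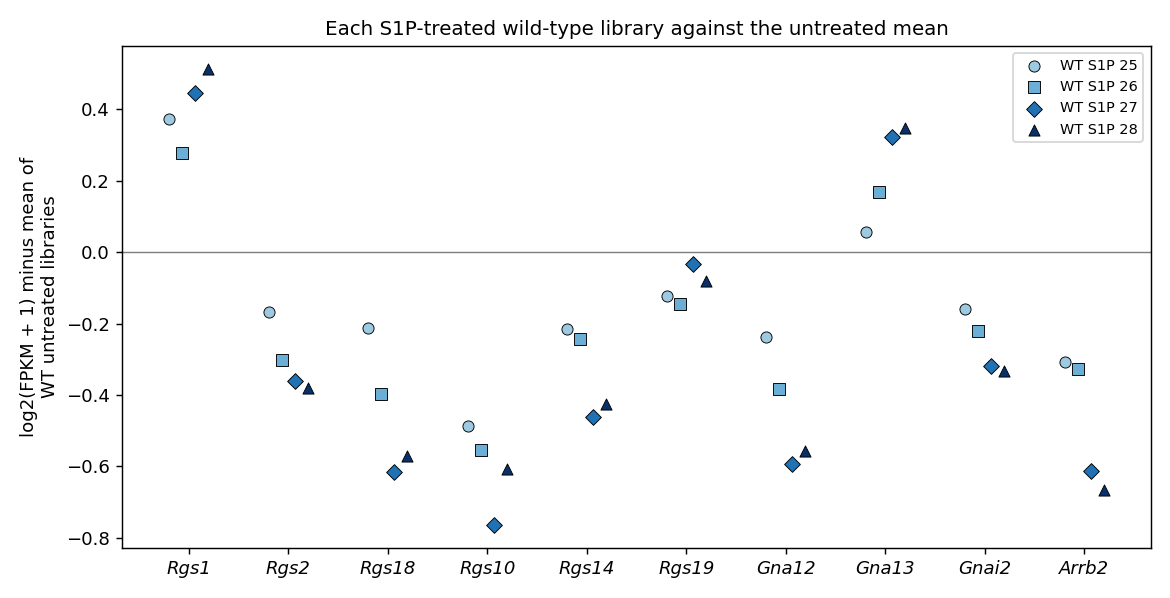
Difference of each WT S1P library from the WT untreated mean, in log2(FPKM + 1), for each gene, with 1 point per library. Libraries 27 and 28 lie farthest from 0 in 9 of 10 genes, the exception being Rgs19.

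Over the other comparisons, ACM called 2 of 10 members in WT cells, Rgs1 and Rgs10, where 22.1% of all genes were called. The other 8 differences lay between −0.07 and 0.09. The WT ACM and WT untreated ranges did not overlap in 4 of 10 members, Gna13 and Arrb2 among them, against 28.8% of all genes. S1P set against ACM in WT cells called 8 members, all lower with S1P, where 41.5% of all genes were called, 23% lower. Those not called were Rgs1 and Gna13 (0.13 ± 0.05, limma adjusted p 0.057). Without WT S1P libraries 27 and 28 that count was 6, with Rgs2 and Rgs14 no longer called. Over all genes tested, 2402 were then called in place of 4726. Leaving out 1 library, Rgs2 lost the call without WT S1P 27 or 28 and Rgs19 without WT S1P 26 or WT ACM 19, and Gna13 gained one without WT S1P 25 or 26, KO S1P 91 or KO untreated 79.

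In KO cells neither treatment called a member against untreated cells. With limma, 0 members were called for S1P and 0 for ACM, and at an unadjusted p under 0.05 there were 4 and 1 of 10, against 10.3% and 9.17% of all genes. At the adjusted p, 0.00879% of all genes were called in each, or 0.185% for S1P and 0.044% for ACM without library 81. Without library 81 the members' differences ran from −0.20 to 0.10 for S1P and from −0.07 to 0.14 for ACM, with SE from 0.03 to 0.07. The furthest for S1P were Rgs1 at −0.20 ± 0.06 and Rgs2 at −0.17 ± 0.05 (limma adjusted p 0.27 each), whose KO S1P ranges lay below those of KO untreated. S1P against ACM in KO cells called 0 members (3 of 10 at an unadjusted p under 0.05, against 6.81% of all genes), where 0.0352% of all genes were called. Without library 81 this comparison called Rgs1 at −0.27 ± 0.06 and Rgs2 at −0.31 ± 0.05 (limma adjusted p 0.045 and 0.0063), against 0.229% of all genes.

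Between genotypes, the S1P groups had the most members called. KO S1P against WT S1P called 9 members, 6 higher and 3 lower, where 52.4% of all genes were called (26.9% higher and 25.4% lower), and Rgs18 was the exception (0.12 ± 0.08, limma adjusted p 0.23). Without WT S1P library 25 Rgs18 was called too (0.19, adjusted p 0.029), and without 27 and 28 the count was 8, with Gna13 no longer called. In the fit without 27 and 28, 4433 genes over all tested were called in place of 5958. KO ACM against WT ACM called 3, Rgs1 and Rgs2 lower and Rgs10 higher, where 28% of all genes were called (12.5% higher and 15.5% lower). The KO ACM and WT ACM ranges did not overlap in 7 of 10 members, against 32.4% of all genes. These included Rgs14, Rgs18, Gna13 and Arrb2, which were not called. KO untreated against WT untreated called 0 members with library 81 (2 of 10 at an unadjusted p under 0.05, against 16.4% of all genes), where 2.47% of all genes were called, and without it Rgs2 and Rgs18, both lower, where 8.15% of all genes were called. The S1P response differed between genotypes for 9 members by the interaction test, 7 with a positive and 2 with a negative term, where 41.9% of all genes were called (22.5% positive and 19.4% negative), and for 9 of 10 also without library 81 (41.6% of all genes). Without WT S1P libraries 27 and 28 this count was 7, with Rgs18 and Gna13 no longer called. Over all genes tested, 3575 were then called in place of 4772. The ACM response differed for Rgs1 and Rgs10, where 17.1% of all genes were called, and for the same genes without library 81 (14.9%). These comparisons share groups, so they are not independent of each other. Granulocyte markers, of which 4 of 8 were under an FPKM of 1 in every library, summed to 19.8 to 22.8 across KO S1P and KO ACM libraries against 6.59 to 10.9 across WT libraries, and macrophage markers summed to 4798 to 5167 in KO ACM against 6544 to 7275 in WT ACM libraries. Under S1P the macrophage sums overlapped, at 4913 to 5105 in KO and 4646 to 6438 in WT libraries. Untreated, they were 4619.6 to 6715.5 in KO libraries, 81 included, and 7897 to 8094 in WT libraries. The granulocyte sums were 7.29 to 20.6 in KO untreated libraries, 81 included. Neither sum of KO untreated is given here without library 81. The part of either list in the genotype differences was not tested.

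**Figure D5:**
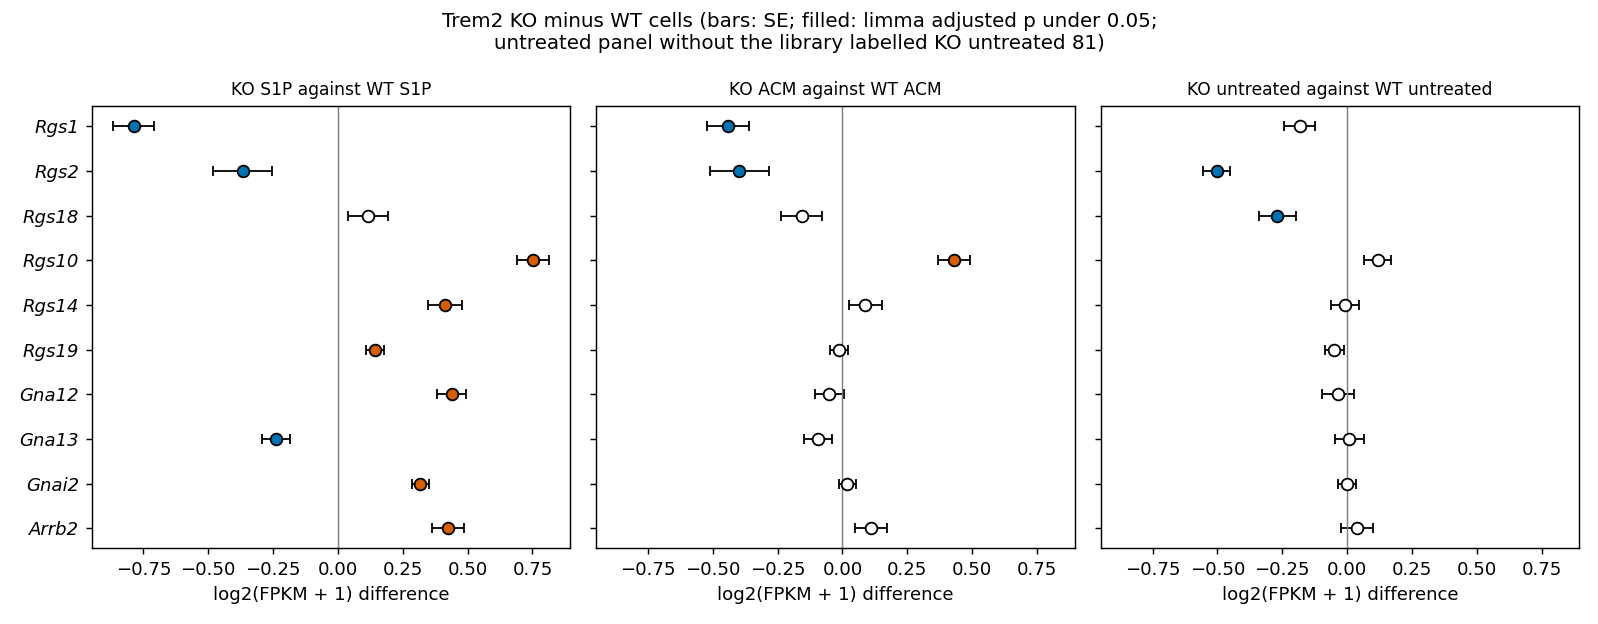
Log2 differences on the log2(FPKM + 1) scale of each gene between KO and WT libraries under S1P, under ACM and untreated, with bars of 1 SE from limma. The untreated panel is from the fit without library 81 and the others from the fit with all 24 libraries. The SE of these fits differ. Rgs10 is at 0.75 under S1P and 0.43 under ACM, and Rgs1 at −0.79 and −0.44.

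The genes whose profiles over 23 libraries, without library 81, were nearest to those of the 5 widest-ranging members were found by the root mean square difference in centred log2(FPKM + 1) among 6777 protein-coding genes. For Rgs1 these were Ptpn22 at 0.102 and Rab7b at 0.104, for Rgs10 Ppt1 at 0.0709 and Slc31a1 at 0.0711, and for Rgs2 Myo1e at 0.122 and Vma21 at 0.128. For Arrb2 they were Arhgap4 at 0.0582 and Cdkn2aipnl at 0.0613, and for Rgs18 Isoc1 at 0.0661 and Itga4 at 0.0682. The profiles share libraries and scaling, and the order is a description.

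The wider pathway was counted in lists of related genes, again in WT S1P against WT untreated libraries, where 25.2% of all genes were called higher and 27.2% lower. Of 17 other RGS genes 4 were tested, and all 4 fell: Rgs12 (−0.37), Rgs11 (−0.56), Rgs3 (−0.19) and Axin1 (−0.12). Rgs12 and Rgs3 lay near the filter at FPKM 1, with means of 0.876 and 0.912 in WT S1P against 1.42 and 1.18 in WT untreated libraries. Of 13 other alpha subunits 5 were tested and 2 fell, Gnaq (−0.13), which couples receptors to phospholipase C, and Gna15 (−0.16). Gnai3, Gna11 and Gnas, at 0.00, 0.00 and 0.07, were not called. Of 17 beta and gamma subunits 10 were tested, with 3 higher and 6 lower. Among them Gng11 rose most, to 16.1 ± 2.29 FPKM in WT S1P against 9.67 ± 1.56 in WT untreated libraries (SD, n = 4 each; log2 difference 0.68 ± 0.12, limma adjusted p 8.0e-05), and Gnb4 fell (−0.30). Gnb4 was low as well, at mean FPKM of 1.24 in WT S1P and 1.76 in WT untreated libraries.

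Receptor kinases and arrestins gave 1 higher and 3 lower of 4 tested of 6. Grk6 (−0.48) and Grk2 (−0.35), kinases that mark active receptors for arrestin, fell with Arrb2, while Grk5 rose (0.53). In KO S1P against WT S1P libraries Grk6 and Grk2 were higher (0.37 and 0.45) and Grk5 lower (−0.35), each called. Chaperones and modulators gave 3 higher and 1 lower of 8 tested, Ric8a (0.23), which helps fold alpha subunits, Gpsm3 (0.28) and Pdcl (0.11) higher, and Gpsm2 (−0.79), which holds Gi alpha in its GDP form, lower. With ACM in WT cells the kinase and arrestin list gave 0 higher and 1 lower, and this list 1 higher and 1 lower. Mean FPKM in WT ACM libraries was 12.1 for Grk6 and 10.0 for Gpsm2, against 14.7 and 12.2 in WT untreated libraries. Of 7 effectors of G12 and G13, Arhgef12 rose (0.45) and Arhgef1 fell (−0.26), both exchange factors for RhoA, while Rock2, a kinase that RhoA activates, at −0.08, was not called.

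Effectors of the other families gave 2 higher and 3 lower of 9 tested of 17. Pik3cg, the catalytic subunit of the phosphoinositide 3-kinase that G beta-gamma activates, fell to 13.4 ± 2.78 FPKM in WT S1P against 25.99 ± 1.17 in WT untreated libraries (SD, n = 4 each; −0.92 ± 0.09, limma adjusted p 1.0e-08). Its adaptor Pik3r5 rose (0.44). In KO S1P libraries Pik3cg was at 26.6 ± 0.905. In WT ACM libraries it was at 19.96 ± 0.775, and ACM against untreated in WT cells gave 2 higher and 2 lower in this list. Of 5 S1P receptors 2 were tested. S1pr2, which couples to G12 and G13 among others, had 11.4 ± 0.392 FPKM in KO S1P, 16.0 ± 0.919 in WT S1P and 11.9 ± 0.351 in WT untreated libraries, and S1pr1, which couples to Gi, had 38.7 ± 0.622 in KO S1P, 29.5 ± 2.70 in WT S1P and 34.3 ± 2.55 in WT untreated libraries (SD, n = 4 each). S1pr2 rose and S1pr1 fell in WT S1P against WT untreated (0.40 and −0.21, limma adjusted p 3.7e-07 and 0.0014). Both were called higher in WT ACM against WT untreated, at 14.8 ± 0.261 FPKM for S1pr2 and 38.2 ± 1.27 for S1pr1 in WT ACM libraries. In KO cells 0 genes of these lists were called for S1P or ACM against untreated cells with or without library 81. Nearly no gene was called there at all, 0.00879% of all genes in each, or 0.185% for S1P and 0.044% for ACM without library 81.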

How the data were processed

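RNA was extracted with Trizol and messenger RNA captured with oligo(dT), per the labels' protocols. The authors deposited 1 FPKM value for each of 54532 genes in each of 24 libraries, with 0 columns of other samples. The submitters' processing notes list the tools STAR, HISAT2, StringTie, featureCounts, DESeq, edgeR and STAR-Fusion and the builds GRCm38 and mm10. What each did, its version and any use of strand are not stated there. Gene names and coordinates come from GENCODE M21 (GRCm38), in which 54495 identifiers were found. Multiplied by exon length, 96.4 to 96.7% of values per library were whole reads within 0.05, which gave the depth; the count test on these reads was not run.

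The 11377 genes with FPKM 1 or more in 4 or more libraries (11355 without library 81) entered a limma fit (limma 3.58.1, R 4.3.3) of the 6 groups on log2(FPKM + 1), with a trend of variance on level. This scale understates changes of low genes. A gene is called in 1 of the 11 comparisons where its p, adjusted by Benjamini-Hochberg across every gene tested, is under 0.05. SE values of members rest on a spread shared by all groups. Exact permutation tests used the difference of group means of log2(FPKM + 1), and 3 libraries against 4 cannot go below 0.0571. The fit was tested on simulated data with independent noise and no outlying library, so that test does not cover libraries such as 81.

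The text names all 10 members, Trem2, up to 4 genes of each list by the smallest adjusted p in WT S1P against WT untreated, receptors and partners of members, and the 2 nearest profiles of the 5 widest-ranging members among protein-coding genes with a mean FPKM of at least 5. The result of 1 marker gene is not reported here. Members, lists and ratios were chosen with earlier results of these data known. Alternatives were another pseudocount, filters, scalings and fits, and leaving out libraries.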

Additional observations from a re-analysis of the deposited data

Results flagged for a closer look

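Of 60 sets of 4 libraries, 4 had a library whose gap to the nearest other was a larger share of the range than Dixon's critical value, and chance gives this in about 1 in 20. The library labelled KO untreated 81 was above the other KO untreated libraries for Rgs2, at an FPKM of 65.3 against 36.2 to 39.5, and for Rgs18, at 37.0 against 29.0 to 30.1. Rgs14 in WT ACM library 20 was 15.0, below the others at 16.0 to 16.1. Arrb2 in KO S1P library 94 was 104.6, above the others at 96.8 to 98.0.

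The response to S1P, on the log2(FPKM + 1) scale, differed between KO and WT cells by the limma interaction term, the KO difference minus the WT difference, for 9 members in the fit with all 24 libraries. Among the RGS genes this was −0.71 for Rgs1 (adjusted p 2.7e-05), 0.70 for Rgs10 (adjusted p 1.7e-06), 0.50 for Rgs14 (adjusted p 0.00015), 0.30 for Rgs18 (adjusted p 0.031) and 0.20 for Rgs19 (adjusted p 0.0026). It was 0.45 for Gna12 (adjusted p 0.00011), −0.27 for Gna13 (adjusted p 0.0057), 0.32 for Gnai2 (adjusted p 8.7e-06) and 0.43 for Arrb2 (adjusted p 0.00044). The response to ACM differed for Rgs1, at −0.37 (limma adjusted p 0.028), and Rgs10, at 0.38 (limma adjusted p 0.0041).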

How the results depend on the processing

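Across 33 settings, the 110 differences of single members gave 0 called values of the other sign, 50 lost calls and 20 added ones. The calls most often lost were Rgs18 in the S1P interaction, Rgs2 and Rgs19 in WT S1P against untreated, and, equally often, Rgs1 in the ACM interaction and Rgs2 and Rgs19 in WT S1P against ACM. The count of members called in KO S1P against KO ACM was 2 without KO untreated library 81 and 0 with it, and in KO untreated against WT untreated it was likewise 2 and 0. In KO ACM against WT ACM it was 6 with only the groups compared in the fit, against 3, and 4 with quantile normalization or without WT S1P libraries 27 and 28, with Arrb2 added. In the ACM interaction it was 1 with no filter and 1 with TPM scaling, against 2. The cause of these was not tested. Leaving out 1 library at a time, the counts ran from 8 to 10 in WT S1P against untreated, 7 to 9 against ACM, 9 to 10 in KO S1P against WT S1P, 8 to 9 in the S1P interaction, 1 to 2 in the ACM interaction, 0 to 2 in KO S1P against KO ACM and 0 to 2 in KO untreated against WT untreated. The count of 1 in the ACM interaction came without WT untreated library 1 or 3 or KO ACM library 85. Counts stayed at 2 in WT ACM against untreated, 3 in KO ACM against WT ACM, and 0 in both KO treatments against untreated. Shares over all genes in the fits that left out 1 library are not given here. TPM scaling moved the median log2 difference of all genes to −0.11 in WT ACM against untreated, against 0.00, and to 0.12 in the ACM interaction, against 0.01. With it the share of higher calls was 14.6% in place of 55.4%, and 77.5% in place of 43.5%; Rgs1 was not called in WT ACM (0.22, adjusted p 0.077) and Gna12 and Gnai2 were lower there (−0.18 and −0.15, adjusted p 0.025 and 0.037). It also ended the call on Rgs19 in the S1P interaction (0.20, adjusted p 0.081). Without WT S1P libraries 27 and 28, the count was 8 in WT S1P against untreated, 8 in KO S1P against WT S1P and 7 in the S1P interaction. Over all genes tested, 4324, 4433 and 3575 were called in these comparisons. No paired analysis was possible because the groups compared share no replicate numbers.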
